A study of Mus musculus with 6 samples.

Results

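The 10 genes described here encode the enzymes that make and break down serotonin (5-hydroxytryptamine), the carriers that store it and take it up again, and some of its receptors: *Tph1*, *Tph2*, *Ddc*, *Slc18a2*, *Slc6a4*, *Maoa*, *Maob*, *Htr1d*, *Htr2b* and *Htr3a*. They were taken by gene name from the 55060 genes in the deposited expression table, and all 10 had a row. *Tph1* and *Tph2* were chosen on these samples, because their levels lie higher in cKO islets, and the other 8 because they belong to the same pathway. The values of the 10 genes are therefore given as a description, without a test. RNA was sequenced from pancreatic islets of mice at 12 weeks of age, with 3 Ctrl samples and 3 cKO samples. In the cKO mice, Cre recombinase driven by the *Ins2* promoter deletes the loxP-flanked exon 7 of *Parn*, which encodes the poly(A)-specific ribonuclease PARN, in β cells. The Ctrl samples came from Parn f/f mice and other littermates, and the floxed allele was made on C57BL/6. Which Ctrl samples carried Cre is not given in the sources used here, so the Cre transgene and the loss of *Parn* cannot be told apart in this comparison. As background, this *Ins2*-Cre line also carries a human growth hormone minigene, whose transcripts were not analysed here.

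Serotonin is made from tryptophan. Tryptophan hydroxylase, encoded by *Tph1* in peripheral tissue and *Tph2* in neurons of the brain, carries out the rate-limiting step, and aromatic L-amino acid decarboxylase, encoded by *Ddc*, completes it. Vesicular monoamine transporters load the product into granules, the plasma membrane transporter encoded by *Slc6a4* takes it back into cells, and the monoamine oxidases encoded by *Maoa* and *Maob* degrade it. Pancreatic β cells keep serotonin in their insulin granules, and in pregnancy lactogenic hormones acting through the prolactin receptor raise *Tph1* and *Tph2* in these cells. Outside the islet, enterochromaffin cells and mast cells also express *Tph1*.

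The windows upstream of the tryptophan hydroxylase genes are shown because the levels of these 2 genes separated the groups. RefSeq (GRCm38.p6) lists 2 starts for *Tph1* and 1 for *Tph2*, all on the minus strand, and the 250 bases before each start are printed 5′ to 3′ along the gene. The window at the first *Tph1* start is chr7:46672538-46672787, that at the internal start is chr7:46667378-46667627, and that of *Tph2* is chr10:115185023-115185272. Capitals mark TATAAA, searched on the strand of the gene, and CCAAT, searched on both strands and reading ATTGG where it lies on the opposite strand.
Tph1, first start: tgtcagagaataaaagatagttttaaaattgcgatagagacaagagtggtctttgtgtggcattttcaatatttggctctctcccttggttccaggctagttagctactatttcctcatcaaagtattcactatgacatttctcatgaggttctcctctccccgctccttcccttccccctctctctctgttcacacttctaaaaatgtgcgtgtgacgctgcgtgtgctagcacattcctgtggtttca
Tph1, internal start: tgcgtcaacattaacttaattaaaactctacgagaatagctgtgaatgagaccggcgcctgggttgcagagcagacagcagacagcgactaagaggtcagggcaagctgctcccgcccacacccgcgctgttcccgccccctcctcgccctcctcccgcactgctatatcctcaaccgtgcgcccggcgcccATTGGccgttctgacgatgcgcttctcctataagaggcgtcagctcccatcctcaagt
Tph2: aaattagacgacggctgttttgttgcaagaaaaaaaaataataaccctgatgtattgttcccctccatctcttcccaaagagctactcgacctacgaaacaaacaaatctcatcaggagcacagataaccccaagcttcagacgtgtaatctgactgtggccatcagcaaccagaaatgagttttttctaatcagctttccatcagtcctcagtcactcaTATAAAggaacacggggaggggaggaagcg
The window at the first *Tph1* start held neither motif. The internal *Tph1* start had CCAAT on the opposite strand, with its first base 58 bases before the start, and *Tph2* had TATAAA 30 bases before its start. Of all 32851 RefSeq windows of this length, 33.8% held CCAAT and 7.59% held TATAAA. The letters TTCNNNGAA, which read the same on both strands and are the core of the sites that STAT factors bind, occurred in 7.02% of all windows and in none of the 11 windows found for 8 of the 10 genes. *Maob* and *Htr3a* had no window. Such matches describe the letters in these windows and do not show binding.

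*Tph1* was the gene with the widest difference among the 10. It lies on chromosome 7 from 46644641 to 46672537 on the minus strand (ENSMUSG00000040046). Levels are given in FPKM, that is, fragments counted on a gene after division by gene length and library size. *Tph1* stood at 26.2, 3.45 and 0 FPKM in Ctrl replicates 1, 2 and 3 and at 43.7, 29.9 and 46.2 in cKO replicates 1, 2 and 3. The groups did not overlap, but Ctrl replicate 1 came close to the lowest cKO sample, which was 1.14-fold above it, and the Ctrl samples varied far more among themselves than the cKO samples did. The Ctrl mean was 9.89 ± 14.2 FPKM (SD, n = 3), against 39.9 ± 8.79 (SD, n = 3) for cKO, and the difference of log2(FPKM + 1), cKO minus Ctrl, was 3.02 with a standard error of 1.09. In reads, *Tph1* had 2822, 335 and 0 in Ctrl and 4739, 3207 and 5157 in cKO. A count of 0 allows up to 3 reads, or 0.0292 FPKM in Ctrl replicate 3, and against this floor, taken for that library, the cKO samples were at least 1023-fold higher. Without Ctrl replicate 1, the Ctrl mean was 1.73 FPKM, the ratio of the means went from 4.04 to 23.2, and the log2 difference was 4.25. Without Ctrl replicate 3 the log2 difference was 1.87, so the size of the difference depended on which Ctrl samples were used, while its direction did not.

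*Tph2* separated the groups with less spread. It lies on chromosome 10 from 115078641 to 115185022 on the minus strand (ENSMUSG00000006764) and stood at 2.73, 1.61 and 1.19 FPKM in Ctrl and at 6.27, 5.69 and 5.76 in cKO. Every cKO sample lay above every Ctrl sample, and the lowest cKO sample was 2.09-fold above the highest Ctrl sample. The Ctrl mean was 1.84 ± 0.794 FPKM (SD, n = 3), against 5.91 ± 0.314 (SD, n = 3) for cKO, with a log2 difference of 1.32 and a standard error of 0.2. The highest *Tph2* value within Ctrl was in replicate 1 and the lowest in replicate 3, the same order as for *Tph1*. As a part of the summed FPKM of both hydroxylases, *Tph2* made up 15.7% of the Ctrl means and 12.9% of the cKO means. Within single Ctrl samples that part ran from 9.43% in replicate 1 to 100% in replicate 3, where *Tph1* had no reads, and within cKO samples from 11.1% to 16.0%. Ordered from the highest FPKM in each sample, *Tph1* held rank 1406 in Ctrl replicate 1 and 8398 in replicate 2, against ranks 706 to 1205 in the cKO samples. *Tph2* held ranks 9734 to 12531 in Ctrl and 5819 to 6159 in cKO.

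The decarboxylase gene overlapped between the groups. *Ddc*, on chromosome 11 from 11814101 to 11898144 (minus strand), stood at 63.3, 81.6 and 88.8 FPKM in Ctrl and 90.9, 60.7 and 79.0 in cKO. The groups overlapped over most of their range, with means of 77.9 ± 13.2 (SD, n = 3) and 76.9 ± 15.2 (SD, n = 3) and a log2 difference of -0.02 (standard error 0.188). *Ddc* was the more abundant of the 2 in every sample, and the ratio of the hydroxylase to the decarboxylase level differed between the groups. *Tph1* came to 41.4%, 4.23% and 0% of the FPKM of *Ddc* in the Ctrl samples and to 48.1%, 49.2% and 58.5% in the cKO samples. These ratios did not overlap either, and taken from the group means they were 12.7% in Ctrl and 51.9% in cKO. Because *Tph1* was chosen as higher in cKO and *Ddc* overlapped, the ratio adds no separate result. The plot of the 10 genes by sample shows the separation of both hydroxylases beside the overlap of *Ddc*.

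**Figure D1:**
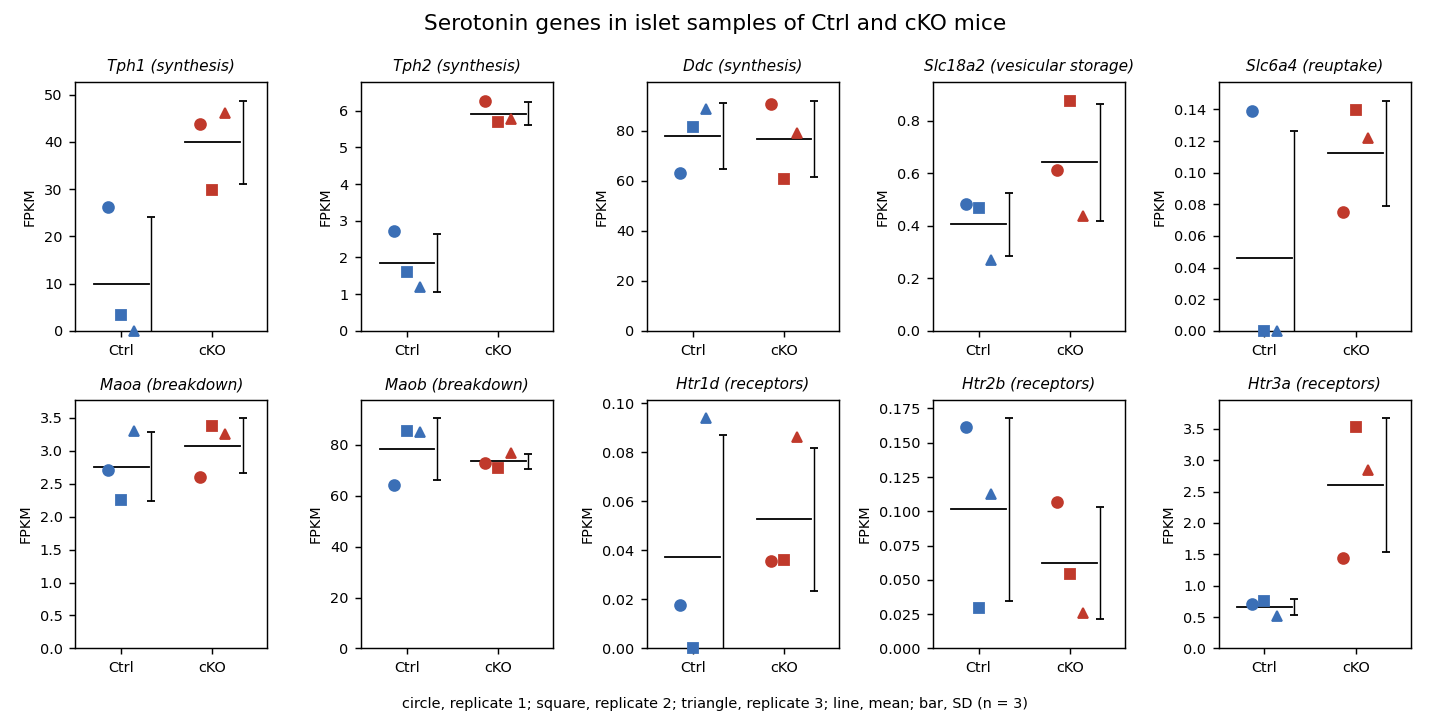
FPKM (vertical axes, each from 0) of the 10 serotonin genes in 3 Ctrl (blue) and 3 cKO (red) islet samples, with a symbol for each replicate, a line at the mean and a bar for the SD, which is cut at 0. *Tph1*, *Tph2* and *Htr3a* lie higher in every cKO sample than in any Ctrl sample, whereas the values of the other 7 genes overlap.

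Storage and reuptake genes were low and overlapped. *Slc18a2*, which encodes the vesicular monoamine transporter VMAT2 (chromosome 19, 59260878 to 59296012, plus strand), stood at 0.482, 0.468 and 0.269 FPKM in Ctrl and 0.614, 0.877 and 0.436 in cKO. The cKO sample with the lowest value lay below 2 of the Ctrl samples, and the log2 difference was 0.22 with a standard error of 0.141, on 17 to 58 reads per sample. With means of 0.406 ± 0.119 (SD, n = 3) and 0.642 ± 0.222 (SD, n = 3), the gap was about the size of the spread within cKO. *Slc6a4*, the serotonin transporter (chromosome 11, 76998603 to 77032340, plus strand), had 11, 0 and 0 reads in Ctrl and 6, 11 and 10 in cKO, or 0 to 0.139 FPKM. Ctrl replicate 1 had as many reads as the highest cKO sample, and a difference was not detectable at this depth.

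Of the monoamine oxidases, *Maob* was the abundant one in these islets and neither differed beyond the spread with all samples used. *Maob* (X chromosome, 16709282 to 16817366, minus strand) stood at 64.3, 85.4 and 85.2 FPKM in Ctrl and 72.8, 71.0 and 76.7 in cKO, with all cKO samples inside the Ctrl range. Its means were 78.3 ± 12.1 (SD, n = 3) and 73.5 ± 2.90 (SD, n = 3), a log2 difference of -0.08 (standard error 0.129). The low end of the Ctrl range was Ctrl replicate 1 alone, and without it the *Maob* difference was -0.21 (standard error 0.0738). *Maoa* (X chromosome, 16619698 to 16687818, plus strand) stood at 2.71, 2.26 and 3.30 FPKM in Ctrl and 2.61, 3.38 and 3.25 in cKO. These values overlapped as well, and the log2 difference was 0.12 with a standard error of 0.146. Per length, the mean of *Maob* was 28.4-fold that of *Maoa* in Ctrl and 23.8-fold in cKO.

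Among the receptors, *Htr3a* separated the groups and the other 2 were at trace levels. *Htr3a* encodes a subunit of the serotonin-gated ion channel and lies on chromosome 9 from 48899213 to 48911099 on the minus strand (ENSMUSG00000032269). It stood at 0.715, 0.763 and 0.519 FPKM in the Ctrl samples, on 18 to 26 reads, and at 1.45, 3.53 and 2.84 in the cKO samples, on 53 to 128 reads. Every cKO sample lay above every Ctrl sample, the lowest by 1.90-fold over the highest, and cKO replicate 1 had the lowest value of the cKO samples. The Ctrl mean was 0.666 ± 0.129 FPKM (SD, n = 3), against 2.61 ± 1.06 (SD, n = 3) for cKO, with a log2 difference of 1.07 and a standard error of 0.237. The pseudocount shrinks a difference at such levels, and with a pseudocount of 0.1 it was 1.75. *Htr3b*, which encodes the partner subunit of this channel, stood between 0 and 0.105 FPKM in Ctrl and between 0.0688 and 0.215 in cKO, on at most 9 reads.

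*Htr1d*, a receptor coupled to inhibitory G proteins (chromosome 4, 136423524 to 136444398, plus strand), had 1, 0 and 5 reads in Ctrl and 2, 2 and 5 in cKO. *Htr2b*, a receptor coupled to Gq (chromosome 1, 86099026 to 86111970, minus strand), had 6, 1 and 4 reads in Ctrl and 4, 2 and 1 in cKO. Both overlapped, and a difference in either was not detectable at this depth. *Htr2b* also lies within *Psmd1* on the opposite strand, a proteasome subunit gene with means of 10.2 and 10.3 FPKM, and whether strand was used in counting is not given in the sources used here, so its few reads cannot be told apart from those of *Psmd1*. The same limit holds for *Slc6a4*, whose antisense gene *Gm12343* had means of 0.0968 and 0.0917 FPKM and reached 0.290, above any value of *Slc6a4* itself. The antisense gene *1700042O10Rik* on *Ddc* reached 1.01 FPKM, against at least 60.7 for *Ddc*, and those that overlap *Htr3a* and *Slc18a2* were at 0 in every sample.

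Over the 10 genes, 3 lay higher in all cKO samples than in any Ctrl sample, 0 lay lower and 7 overlapped. Only 7 of the 10 had a mean of at least 0.1 FPKM and entered the fit over all genes. *Slc6a4*, *Htr1d* and *Htr2b* did not. Across the 21211 genes in that fit, 7.11% lay higher in every cKO sample and 6.03% lay lower. In limma's moderated test on log2(FPKM + 1), two-sided, 4.33% of the genes were higher and 3.07% lower at an unadjusted p under 0.05, and 0% had a Benjamini-Hochberg adjusted p under 0.05, the smallest being 0.274. Another form of the test, limma's voom on read counts derived from the FPKM values, gave 1026 genes higher and 573 lower at an unadjusted p under 0.05 and also 0 adjusted. Because the choice of the 10 genes used this contrast, nothing is read from their count against these shares. The median log2 difference of all genes tested was -0.0145.

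The wider pathway was described through 72 further genes in 9 lists, which were not chosen for how they moved but were written with earlier results of these data known. Of these, 47 were tested, and 7 (14.9%) were higher and 1 (2.13%) lower at an unadjusted p under 0.05, beside 4.33% and 3.07% of all genes, with a median log2 difference of -0.0412 over the 47. None had an adjusted p under 0.05 with limma and Benjamini-Hochberg adjustment, nor with voom, so no single gene passed the test after adjustment. Because the lists were written with earlier results known, their shares beside those of all genes are a description only. The labels do not say whether the samples are separate animals or pools. The p-values therefore rest on the spread between samples, moderated by that of other genes, and not on a known number of animals. With 3 samples against 3, an exact permutation test of a single gene cannot give a two-sided p below 0.1. The counts also depended on the samples used. Without Ctrl replicate 1, 5 were higher and 7 lower. Without Ctrl replicate 2 it was 4 and 0, without Ctrl replicate 3 it was 5 and 0, without cKO replicate 1 it was 4 and 2, and without cKO replicate 2 or cKO replicate 3 it was 4 and 0. The genes lower without Ctrl replicate 1 included *Gch1*, *Th*, *Slc29a4*, *Slc7a5*, *Lmx1b* and *Ghr*, of which *Gch1*, *Slc7a5* and *Ghr* are named here after their values were seen.

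Of the genes that supply substrate and cofactor, only *Slc7a8* passed the unadjusted threshold. Tryptophan hydroxylase needs tetrahydrobiopterin, and of the 7 genes that make and recycle it, 0 passed the unadjusted threshold in either direction. *Pcbd1*, which encodes a dehydratase of the recycling route, had means of 118 and 117 FPKM and a log2 difference of -0.01 (standard error 0.114), and *Qdpr*, the dihydropteridine reductase, one of -0.13 (standard error 0.114). Of the 7 amino acid transporter genes that can carry tryptophan, 1 was higher. *Slc7a8*, the light chain LAT2, stood at 25.7, 22.7 and 28.6 FPKM in Ctrl and 32.5, 38.6 and 36.1 in cKO, with a log2 difference of 0.47, a standard error of 0.112 and an unadjusted p of 0.00505 (limma, adjusted p 0.454). The groups did not overlap for *Slc7a8*, and it stayed under an unadjusted p of 0.05 in all 13 other settings of the fit. *Slc3a2*, the heavy chain that LAT2 pairs with, had a log2 difference of 0.08 (standard error 0.0993), and *Slc16a10*, an aromatic amino acid transporter, one of 0.12 (standard error 0.102). In the kynurenine route, which uses tryptophan for another purpose, 0 of 7 tested genes passed. *Kynu*, at 0.125 FPKM, and *Kyat1*, at 6.12 FPKM on average, were lower in every cKO sample than in any Ctrl sample, and their unadjusted p was 0.109 and 0.195. *Haao*, a later enzyme of that route, had a log2 difference of -0.44 (standard error 0.295) with overlap.

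Among the other enzymes, 0 of 3 tested catecholamine or related hydroxylase genes and 0 of 6 tested genes of the steps after serotonin passed. *Th*, tyrosine hydroxylase, stood at 10.2, 19.7 and 17.6 FPKM in Ctrl and 14.0, 5.57 and 8.77 in cKO, a log2 difference of -0.72 with a standard error of 0.351 and an unadjusted p of 0.0814. Its groups overlapped through Ctrl replicate 1 and cKO replicate 1, and without Ctrl replicate 1 the difference was -0.99 with an unadjusted p of 0.0367. The aldehyde dehydrogenase genes *Aldh2* and *Aldh3a2* had log2 differences of -0.16 (standard error 0.228) and 0.07 (standard error 0.105).

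Of 8 further amine transporter genes, 3 were tested and 2 were higher. *Slc18a1* encodes VMAT1, the vesicular monoamine transporter of endocrine cells, and stood at 2.67, 1.86 and 2.72 FPKM in Ctrl and 4.10, 2.92 and 3.47 in cKO. All cKO samples lay above all Ctrl samples, by a log2 difference of 0.40 (standard error 0.159) at an unadjusted p of 0.0431 (limma, adjusted p 0.662). This call was lost when any sample but cKO replicate 2 was left out. Per length, *Slc18a1* was the more abundant of the VMAT genes in every sample, with a mean 5.95-fold that of *Slc18a2* in Ctrl and 5.44-fold in cKO. *Slc18b1*, a vesicular polyamine transporter, stood at 2.48, 2.62 and 2.56 FPKM in Ctrl and 3.20, 3.71 and 3.22 in cKO, a log2 difference of 0.30 (standard error 0.101, unadjusted p 0.0234). Its call was lost without cKO replicate 2, and also with the replicate number as a block (unadjusted p 0.0535). *Slc29a4*, a plasma membrane monoamine transporter, had a log2 difference of -0.38 (standard error 0.223) with overlap, and of -0.65 without Ctrl replicate 1 at an unadjusted p of 0.000843.

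The 11 remaining serotonin receptor genes were all below the level tested, and 3 of them had no reads in any sample. *Htr1b*, with *Htr3b* the highest of them, had a mean of 0.0633 FPKM. *Htr2a* had 0 reads in Ctrl and 1, 4 and 2 in cKO, which lies near the 3 reads that a count of 0 allows.

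Of the 8 genes for transcription factors of serotonergic neurons or of endocrine cells, 7 were tested, with 1 higher and 1 lower. *Gata2* stood at 0.635 to 0.871 FPKM in Ctrl and 1.01 to 1.17 in cKO (log2 difference 0.28, standard error 0.112, unadjusted p 0.046). *Lmx1b*, a factor of serotonergic neurons, stood at 2.31, 2.45 and 3.57 FPKM in Ctrl and 1.61, 1.85 and 2.05 in cKO, a log2 difference of -0.40 (standard error 0.158, unadjusted p 0.0414). Neither pair of groups overlapped, yet each call was lost when any sample but Ctrl replicate 1 was left out, and *Lmx1b* then moved to -0.26 without Ctrl replicate 3. Both calls were also lost with no filter on low values, at an unadjusted p of 0.0719 for *Gata2* and 0.052 for *Lmx1b*, and that of *Gata2* with a pseudocount of 0.1 (0.0505). The endocrine factors *Insm1* and *Nkx2-2* overlapped, with log2 differences of -0.05 (standard error 0.18) and -0.07 (standard error 0.134).

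The list on lactogen receptors and STAT5 signalling held 3 of the 7 higher genes. Of its 9 genes, 7 were tested, and 3 (42.9%) were higher and 0 lower at an unadjusted p under 0.05. The shares over all genes were 4.33% and 3.07%, and the median log2 difference of the list was -0.0251. *Prlr*, the prolactin receptor, stood at 27.1, 14.7 and 24.9 FPKM in Ctrl and 33.9, 33.4 and 43.8 in cKO. All cKO samples lay above all Ctrl samples, with a log2 difference of 0.75, a standard error of 0.238 and an unadjusted p of 0.0183 (limma, adjusted p 0.553), which became 0.0698 without cKO replicate 3. Without Ctrl replicate 2, its lowest sample, the log2 difference was 0.48. The other receptor gene of the list, *Ghr*, went the other way with overlap (log2 difference -0.34, standard error 0.153, limma unadjusted p 0.0643). Without Ctrl replicate 1 its difference was -0.48 at an unadjusted p of 0.00853. *Socs2*, which encodes a feedback inhibitor of cytokine signalling and is a known STAT5 target, stood at 5.70, 6.76 and 5.37 FPKM in Ctrl and 11.8, 8.82 and 9.36 in cKO. Its log2 difference was 0.66 with a standard error of 0.136 and an unadjusted p of 0.00226 (limma, adjusted p 0.392), under 0.05 in all 13 other settings. *Cish*, another such inhibitor and target, stood at 9.58, 16.0 and 18.5 FPKM in Ctrl and 34.2, 21.9 and 20.1 in cKO (log2 difference 0.76, standard error 0.284, unadjusted p 0.034). The groups of *Cish* did not overlap, but the call was lost without Ctrl replicate 1 (0.50, unadjusted p 0.0952), Ctrl replicate 2, cKO replicate 1 or cKO replicate 2. The transducers themselves overlapped, with log2 differences of -0.03 for *Jak2*, -0.22 for *Stat5a* and -0.07 for *Stat5b*, 3 genes named after their values were seen. Mouse *Gh* and *Prl*, which encode hormones that act on these receptors, were below the level tested.

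**Figure D2:**
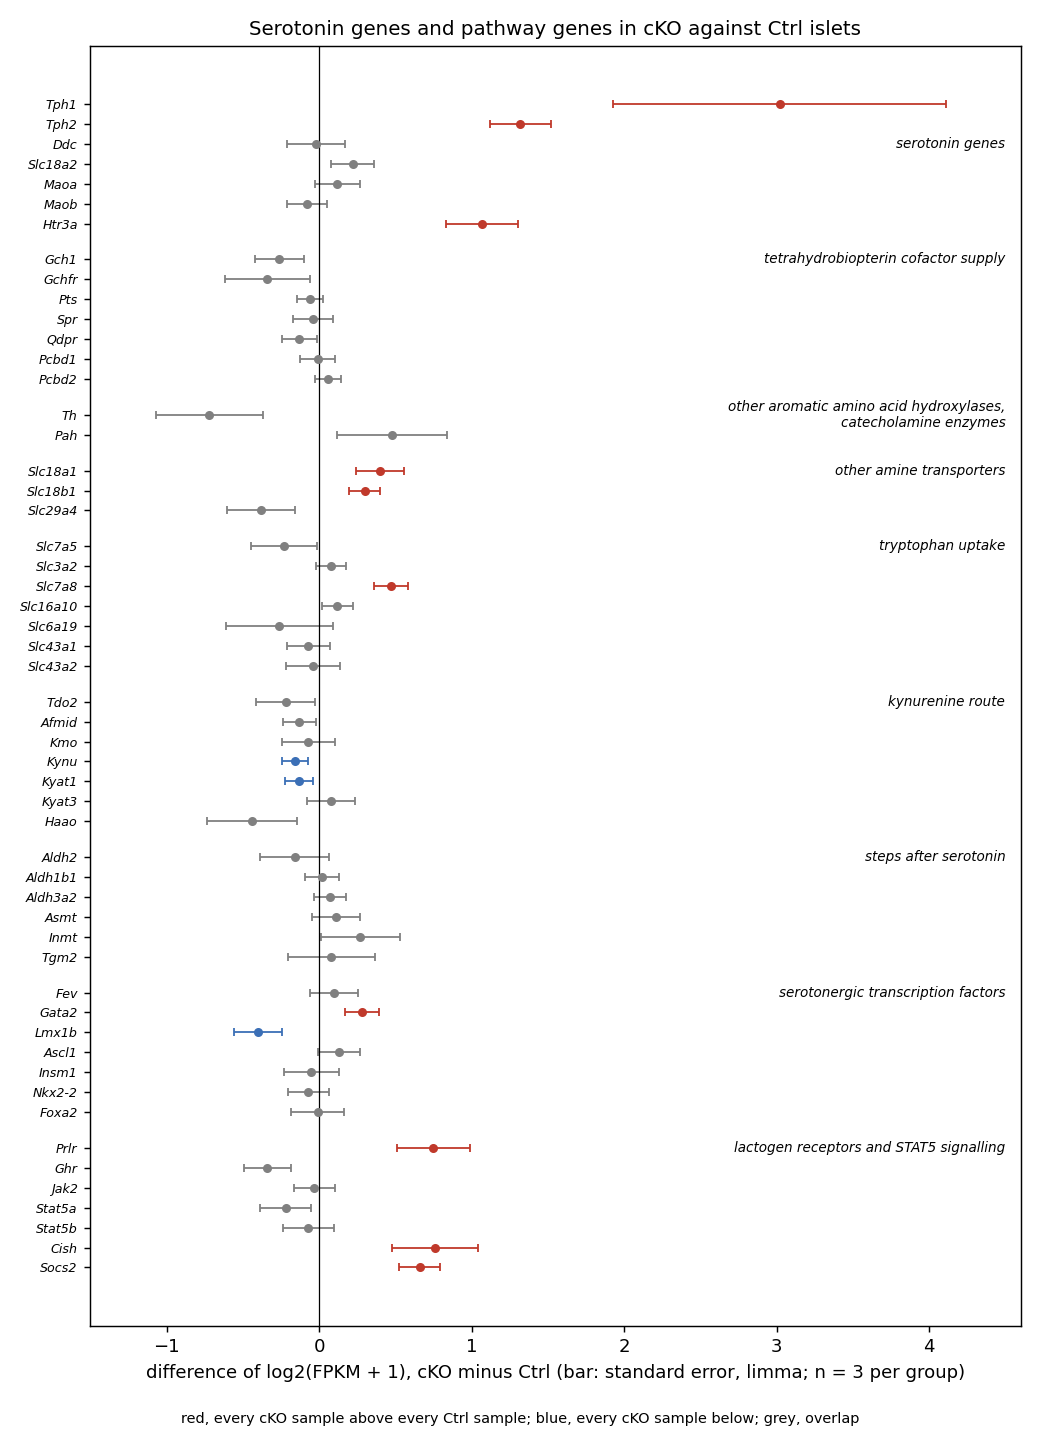
Difference of log2(FPKM + 1), cKO minus Ctrl (horizontal axis), with its standard error from limma (bars) for the 7 serotonin genes and the pathway genes tested, grouped by list, with 1 pathway gene not shown. *Tph1*, *Tph2* and *Htr3a* lie between 1.07 and 3.02, while the pathway genes shown lie between -0.72 and 0.76.

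Per sample, 16289408 to 17944775 reads fell on genes. The library sizes by which the FPKM values had been divided ran from 15731223 to 18085944 and lay below the reads on genes in all 3 Ctrl samples, so they are scaled sizes, at which 1 read on a gene of 1 kilobase was worth 0.0553 to 0.0636 FPKM. The floor for a count of 0 covers counting error only, whereas the SDs describe the spread between samples. The standard errors come from limma, which combines that spread with the variance of other genes of like level. *Parn* stood at 6.64, 8.34 and 7.38 FPKM in Ctrl and 4.97, 4.61 and 6.15 in cKO. Markers of islet cells were abundant, with means of 168013 and 122053 FPKM for *Ins2* (insulin), 12434 and 11881 for *Gcg* (glucagon) and 5727 and 6270 for *Sst* (somatostatin). Of the 8 β-cell markers, 2 lay lower in every cKO sample, *Ins2* and *Iapp*, and 0 lay higher. Over all genes in the fit, 6.03% lay lower and 7.11% higher in this way. The unadjusted p in limma was 0.877 for *Ins2* (log2 difference -0.46, standard error 2.87) and 0.48 for *Iapp* (-0.54, standard error 0.719). Limma draws these errors partly from other genes of like level. The SD of *Ins2* was 7.2% of the mean in Ctrl and 9.9% in cKO, and that of *Iapp* 16.7% and 3.49%. These p-values therefore do not measure the spread of the 2 genes alone and do not show that they were unchanged. Of the 4 α-cell markers, 2 lay higher in every cKO sample and 0 lay lower. In RNA of whole islets, fewer cells of a type and less RNA per cell cannot be told apart, nor can a change of *Tph1* within a cell from a change in which cells are present.

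Ctrl replicate 1, the Ctrl sample with the highest *Tph1* and *Tph2*, stood apart in markers of blood cells. Its 6 leukocyte markers summed to 594 FPKM, against 31.4 to 70.0 in the other samples, and *Lyz2* alone stood at 539 against 15.6 to 56.0. The 7 mast cell markers other than *Kit* had 136 reads in Ctrl replicate 1, 5 in cKO replicate 2, 1 in cKO replicate 3 and 0 in the remaining samples. *Kit* itself differed from this pattern, at 0.778, 0.621 and 0.641 FPKM in Ctrl and 0.856, 0.652 and 0.745 in cKO. *Cma1* and *Cpa3*, which encode proteases of mast cell granules, stood at 2.16 and 1.74 FPKM in Ctrl replicate 1, and in cKO replicates 1 and 3 both were at 0 while *Tph1* stood at 43.7 and 46.2 FPKM. The 5 platelet or megakaryocyte markers summed to 35.9 FPKM in Ctrl replicate 1, 1.37 and 1.75 in the other Ctrl samples and 1.98 to 8.34 in cKO. Ctrl replicate 1 was thus the highest Ctrl sample both in these markers and in *Tph1*, and their part in its *Tph1* value was not tested. Of the 4 enterochromaffin markers, *Tac1* stood at 0.898 to 2.49 FPKM in Ctrl and 2.10 to 5.18 in cKO. Its groups overlapped, with a log2 difference of 0.88 (standard error 0.327, limma unadjusted p 0.0328). *Piezo2* and *Trpa1* had reads in every sample and overlapped, with log2 differences of 0.06 (standard error 0.122) and 0.01 (standard error 0.0987). The marker of lowest mean was at 0 in all but cKO replicate 3, at 0.0163 FPKM.

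The summed stromal markers overlapped between the groups, and the summed endothelial markers did not. The 4 stromal markers summed to 7.57, 5.81 and 8.41 FPKM in Ctrl and to 7.58, 21.9 and 20.7 in cKO. In cKO replicate 1, whose stromal sum lay within the Ctrl range, *Htr3a* stood at 1.45 FPKM, above all Ctrl samples and below the other cKO samples. The 4 endothelial markers summed to 99.1, 84.7 and 97.2 FPKM in Ctrl and 109, 122 and 139 in cKO. Within Ctrl, both sums were lowest in replicate 2, where *Htr3a* was highest at 0.763 FPKM. Within cKO, the stromal sums had the same order as *Htr3a* and the endothelial sums did not. Acinar markers, from exocrine tissue left with the islets, summed to 12306, 19373 and 7073 FPKM in Ctrl and 31988, 8761 and 26555 in cKO, and overlapped between the groups. The part of these cells in the values of *Tph1* and *Htr3a* was not tested.

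**Figure D3:**
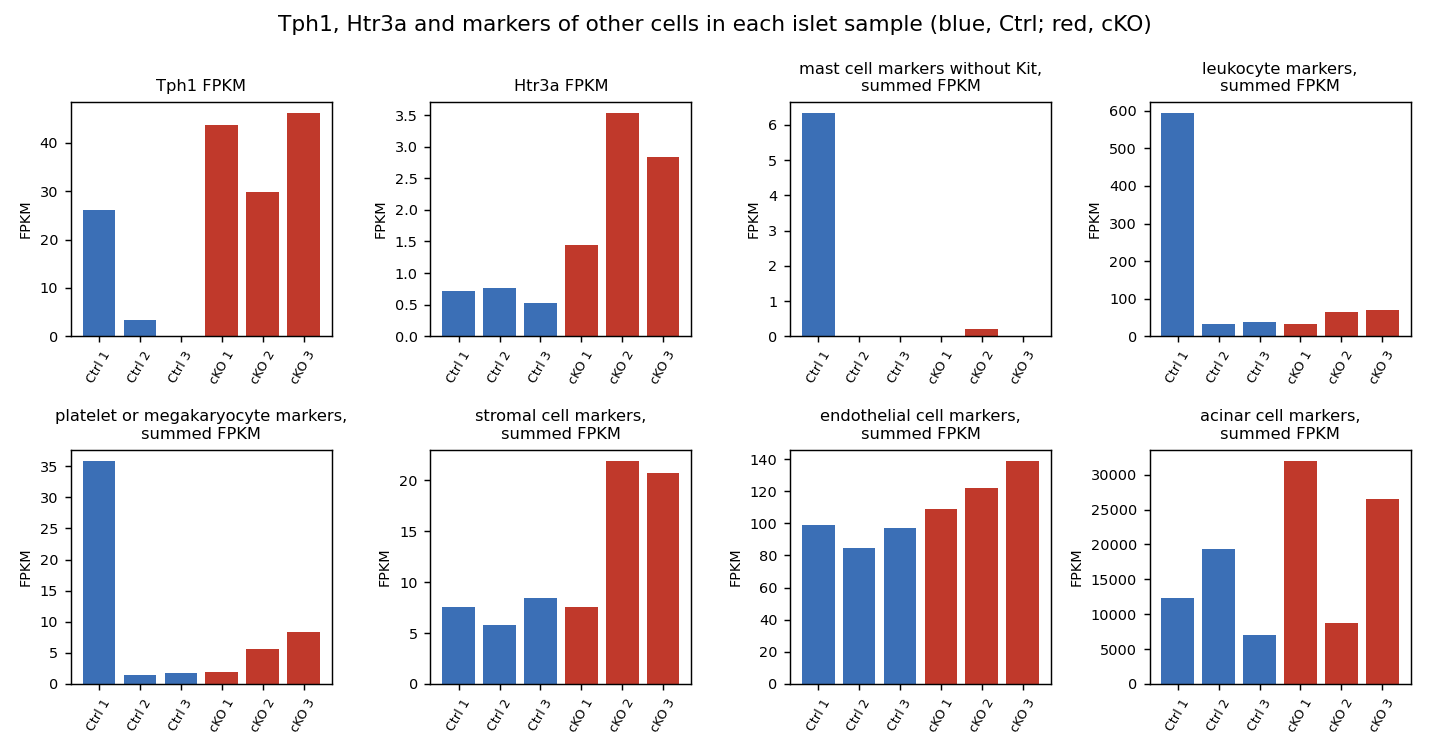
FPKM (vertical axes, from 0) of *Tph1*, *Htr3a* and summed markers of other cell types in each of the 6 islet samples (blue bars, Ctrl; red bars, cKO). The summed markers of mast cells (without *Kit*), leukocytes and platelets are highest in Ctrl replicate 1, while *Tph1* is highest in the cKO samples.

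The libraries also differed in sex-linked genes. *Xist* stood at 20.4 to 42.5 FPKM in all samples but cKO replicate 3, where it was 0.139, and the 4 Y-linked genes were at 0 in Ctrl replicate 3 and cKO replicate 2 and above 0 in the others. Thus 3 libraries, Ctrl replicates 1 and 2 and cKO replicate 1, held both. Such libraries hold RNA of both sexes and may not stand for 1 animal each. Whether they were pooled or mixed was not tested. Between the samples without Y-linked reads, Ctrl replicate 3 and cKO replicate 2, *Tph1* was 0 and 29.9 FPKM, *Tph2* 1.19 and 5.69, and *Htr3a* 0.519 and 3.53. Among the 3 that held both, cKO replicate 1 was above Ctrl replicates 1 and 2 in all 3 genes. cKO replicate 3 had no Ctrl sample of its kind. Since *Tph1*, *Tph2* and *Htr3a* lie higher in every cKO sample, any such division gives the same order, and the part of sex in these values was not tested.

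Over the 6 samples, the genes whose log2(FPKM + 1) most resembled that of *Tph1* were *Socs5* (Pearson's r 0.996), *Pros1* (0.991), *Papss1* (0.991), *Txndc5* (0.990) and *Slc7a7* (0.990), out of 13362 genes with a mean of at least 1 FPKM. *Pros1*, which encodes protein S, stood at 5.31, 2.55 and 1.62 FPKM in Ctrl and 5.60, 5.81 and 6.43 in cKO, and like *Tph1* it was high in Ctrl replicate 1 and lowest in Ctrl replicate 3. Those most like *Tph2* were *Stard3nl* (0.995), *A630076J17Rik* (0.994), *F8a* (0.994), *Ptger3* (0.993) and *Enpp2* (0.993). *Enpp2*, which encodes autotaxin, stood at 92.7, 58.1 and 46.6 FPKM in Ctrl and 170, 171 and 148 in cKO. *Ptger3*, a prostaglandin E2 receptor, stood at 1.34, 1.02 and 0.856 FPKM in Ctrl and 2.76, 2.33 and 2.46 in cKO. The correlations are a description, since the 6 points share their libraries and their split into Ctrl and cKO, and no p is given.

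The plot of other settings shows how far the log2 differences of the tested genes moved. For *Tph1* they ran from 1.87 to 5.67 and for *Tph2* from 1.15 to 1.76, and for *Htr3a* from 0.88 to 1.88, all above 0 in the 13 other settings. The highest *Tph1* value came from voom and depends there on the prior count given to a library without reads. *Slc18a2* ran from 0.12 to 0.64, *Maoa* from 0.03 to 0.23 and *Maob* from -0.21 to -0.01. *Ddc* ran from -0.16 to 0.13 and changed sign.

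**Figure D4:**
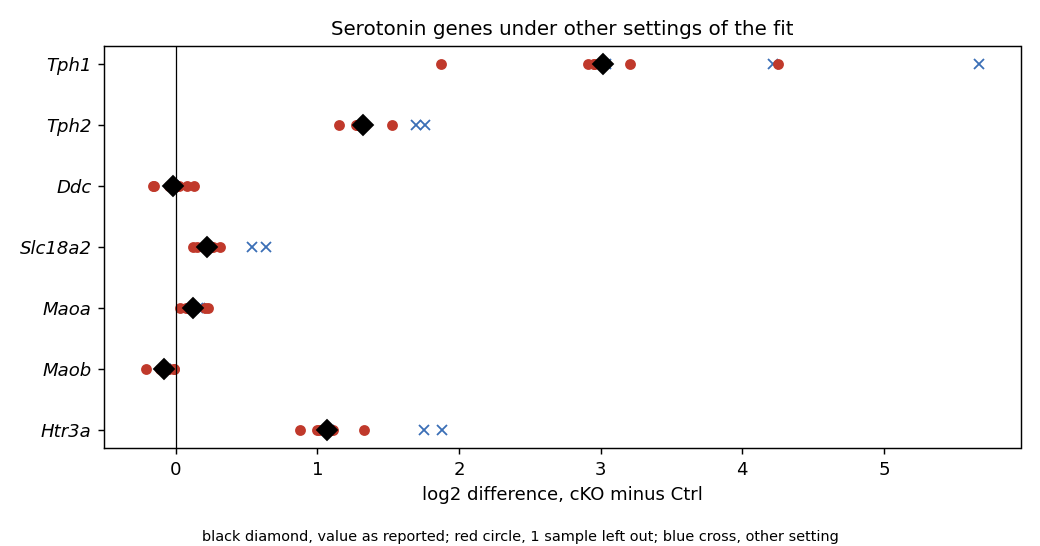
Log2 difference, cKO minus Ctrl (horizontal axis), of the 7 tested serotonin genes as reported (black diamonds), with 1 sample left out (red circles) and under other settings (blue crosses). *Tph1*, *Tph2* and *Htr3a* stay above 0 under all 13, and *Ddc* lies on both sides of 0.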

How the data were processed

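Islet RNA from 3 Ctrl and 3 cKO samples was analysed, grouped by the labels. The authors extracted RNA with TRIzol, made libraries with an mRNA kit and deposited FPKM values per gene and sample on GRCm38, with gene lengths. The aligner and counting tool are not given in the sources used here. Reads per gene were derived by multiplying FPKM by gene length and dividing by the smallest step in each sample, and 100% of the values came out whole within 0.02 read. From FPKM, log2(FPKM + 1) was compared with limma 3.58.1 in R 4.3.3 (empirical Bayes with trend, two-sided) where the mean reached 0.1 FPKM, and p was adjusted by Benjamini and Hochberg's method. The study compared genotypes on counts, whereas FPKM values need a log scale. The code was tested on simulated data. The members and lists were chosen with earlier results of these data known. The named genes were the 10 members, in each pathway list those at an unadjusted p under 0.05 and the 2 of highest mean, up to 3 per marker list, and the 5 most like *Tph1* and the 5 most like *Tph2*. The 13 alternatives changed the pseudocount, the filter, the scaling, the trend, the block or the data (voom), or left out a sample. Plots were drawn in matplotlib 3.10.9 under Python 3.11.15. Some genes that were tested are not reported here.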

Additional observations from a re-analysis of the deposited data

How the results depend on the processing

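Across the 13 alternatives, the log2 differences of *Tph1*, *Tph2*, *Htr3a*, *Slc18a2*, *Maoa* and *Maob* kept their sign, and that of *Ddc*, near 0, did not. *Slc18a2* has no value with a filter at a mean of 1 FPKM, which it does not reach. Over all genes, the count at an adjusted p under 0.05 was 0 with limma and with voom, and 0 to 1 when each sample was left out. The 1 gene, *Phlda3*, named after its value was seen, appeared without Ctrl replicate 1. The count lower at an unadjusted p ran from 402 (without cKO replicate 3) to 1173 (without Ctrl replicate 1), against 651 with all samples. Of the 47 tested pathway genes, 4 to 5 were higher and 0 to 7 lower with a sample left out, against 7 and 1 with all samples, and voom gave 2 lower. The cause of these shifts was not tested. With a replicate block, 4 pathway genes were higher and 2 lower, and the calls of *Slc18b1* (unadjusted p 0.0535), *Gata2* (0.0924) and *Cish* (0.086) were lost. The labels do not say whether same-numbered samples share anything but the number. Their deviations from the group means correlated at -0.171, -0.0219 and -0.0652. With 3 samples per group, such values cannot show whether the samples were paired. At 16289408 to 17944775 reads on genes per sample, *Slc6a4*, *Htr1d*, *Htr2b* and the 11 further receptor genes were too low for a comparison.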
